A study of Mus musculus with 18 samples.

Results

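Ribosomes are built in the nucleolus, and 37 genes whose products make, fold, modify or cut ribosomal RNA there were followed in mouse leukemia cells treated with MI-2-2, a small molecule that blocks the binding of menin to MLL. The rule that chose them names nucleolar and ribosomal RNA processing genes and uses no measured value, but it was set with earlier results of these data known. All 37 were found among the 23418 genes of the expression table, and all 37 were among the 11238 genes that passed the filter on low values (an RPKM, reads per kilobase of gene, scaled to the library total, of at least 1 in at least 3 of 18 libraries).

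In the nucleolus RNA polymerase I copies the ribosomal DNA into a long precursor. Box C/D and box H/ACA ribonucleoproteins, each a small nucleolar RNA (snoRNA) with its protein partners, modify it. The SSU processome cuts out and folds the small-subunit part, and a separate set of factors, among them the PeBoW complex (Pes1, Bop1 and Wdr12), assembles the large 60S subunit. Many of these genes are known targets of the transcription factor Myc, and leukemia cells that carry MLL fusions are known to depend on high Myc.

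The cells came from C57BL/6 mice and carried 1 of 3 fusions of the chromatin regulator MLL to a partner protein: MLL-AF9, MLL-AF6 and MLL-AF1p. Each culture received 6 µM MI-2-2 or the solvent DMSO (0.25%) for 6 days, with medium and compound renewed on day 3. The 6 groups were thus MLL-AF9 with MI-2-2, MLL-AF6 with MI-2-2, MLL-AF1p with MI-2-2 and the same 3 lines with DMSO, with 3 polyA RNA libraries each. The labels do not say that replicates were separate cultures or whether a line was 1 clone, so the p-values reflect how far the libraries of a group scatter, and that scatter could be technical.

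Depth was 21180926 to 30671635 counted reads per library in MLL-AF9 and MLL-AF6 and 48883357 to 56304997 in MLL-AF1p, so MLL-AF1p differs from the other 2 lines in depth as well as in construct. One library stood apart for these genes. MLL-AF6 DMSO replicate 1 had the lowest value of its group for 37 of 37 members, and the members' summed share of counted reads was 0.407% in it, against 0.620% and 0.553% in replicates 2 and 3. Replicate 2 held the highest value of its 3 libraries for 31 members in MLL-AF9 MI-2-2, 27 in MLL-AF9 DMSO, 34 in MLL-AF6 MI-2-2, 34 in MLL-AF6 DMSO, 18 in MLL-AF1p MI-2-2 and 27 in MLL-AF1p DMSO. Member counts that rest on MLL-AF6 DMSO, and the MLL-AF6 changes of named genes, were therefore also computed without replicate 1. As that library was the lowest for every member, leaving it out raises the MLL-AF6 DMSO mean of every member.

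MI-2-2 lowered most of the nucleolar genes in MLL-AF9 and MLL-AF6 cells and did not lower most of them in MLL-AF1p cells. In MLL-AF9, 23 of 37 members fell and 1, Heatr1, rose. In MLL-AF6, 32 fell and none rose. In MLL-AF1p, 10 rose, 2 fell and 25 did not pass the test. Calls of a rise or a fall come from limma, fitted to log2(RPKM + 0.5) over all genes and 18 libraries, at a Benjamini-Hochberg adjusted p under 0.05. On this scale the change of genes with low values is understated. The fit gives each gene a single spread for all 6 groups. The members' median log2 value varied less between libraries in MLL-AF1p (SD up to 0.099) than in MLL-AF9 (0.201) and MLL-AF6 (0.249). A change in MLL-AF1p that did not pass is thus not shown to be absent. In bulk RNA, fewer cells that express these genes and less of their RNA per cell cannot be told apart.

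These counts stand beside a wide drug response. In MLL-AF9, 27.9% of all genes tested fell and 28.5% rose. In MLL-AF6, 38.9% fell and 18% rose, and in MLL-AF1p 26.3% fell and 19.1% rose. The 86.5% of members that fell in MLL-AF6 and the 62.2% in MLL-AF9 were thus above those shares, while in MLL-AF1p 5.41% of members fell and 27% rose. The members' median log2 fold change was -0.44 for MLL-AF9, -0.57 for MLL-AF6 and 0.08 for MLL-AF1p, against medians over all genes tested of -0.00055, -0.16 and -0.06. With log2 values centred on each library's median, 2441 genes rose and 3384 fell in MLL-AF6, against 2025 and 4377 without centring, and 27 members fell there.

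Read library by library, all MI-2-2 values lay below all DMSO values for 23 members in MLL-AF9, for 27 in MLL-AF6 and for 6 in MLL-AF1p, against 28.2%, 41.5% and 40.3% of genes tested. They lay above for 1, 1 and 15 members, against 29%, 19.4% and 28.9% of genes tested.

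The changes were small for single genes. In MLL-AF9 the falls that passed ran from -0.34 to -0.75 on the log2 scale, and in MLL-AF6 from -0.25 to -1.15. In MLL-AF1p the rises ran from 0.25 to 0.74 and the 2 falls were -0.40 and -0.51. The direction of each count held when single libraries were left out, but its size did not always: 16 of the 23 falls in MLL-AF9, 26 of the 32 in MLL-AF6 and 7 of the 10 rises in MLL-AF1p passed with each of the 6 libraries of the comparison left out in turn. With the libraries numbered 3 left out of every group, 3 members rose in MLL-AF1p, and the falls numbered 10 in MLL-AF9 and 15 in MLL-AF6.

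The MLL-AF6 falls were larger with the library that stood apart, MLL-AF6 DMSO replicate 1, left out. This was bound to happen, since that library was singled out for its low values of these genes. Leaving out MLL-AF6 DMSO replicate 2, the highest of its group for 34 members, gave 26 falls and a median of -0.44. Without replicate 1, 35 members fell in MLL-AF6 (94.6%, against 38% of genes tested), with a median of -0.71. All MI-2-2 values then lay below all DMSO values for 35 members, against 49.4% of genes tested. Each of the 32 falls still passed, at 1.05 to 1.49 times its size on the log2 scale, with -1.30 for Dkc1, -1.15 for Nop58, -1.13 for Gar1, -1.03 for Polr1b, -1.02 for Wdr12 and -0.76 for Bop1. Rrs1 (-0.38; adjusted p = 0.0311), Pwp2 (-0.53; adjusted p = 0.00907) and Ltv1 (-0.31; adjusted p = 0.0293) also fell then, whereas Nhp2 (-0.23; adjusted p = 0.227) and Heatr1 (0.11; adjusted p = 0.479) did not pass.

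**Figure D1:**
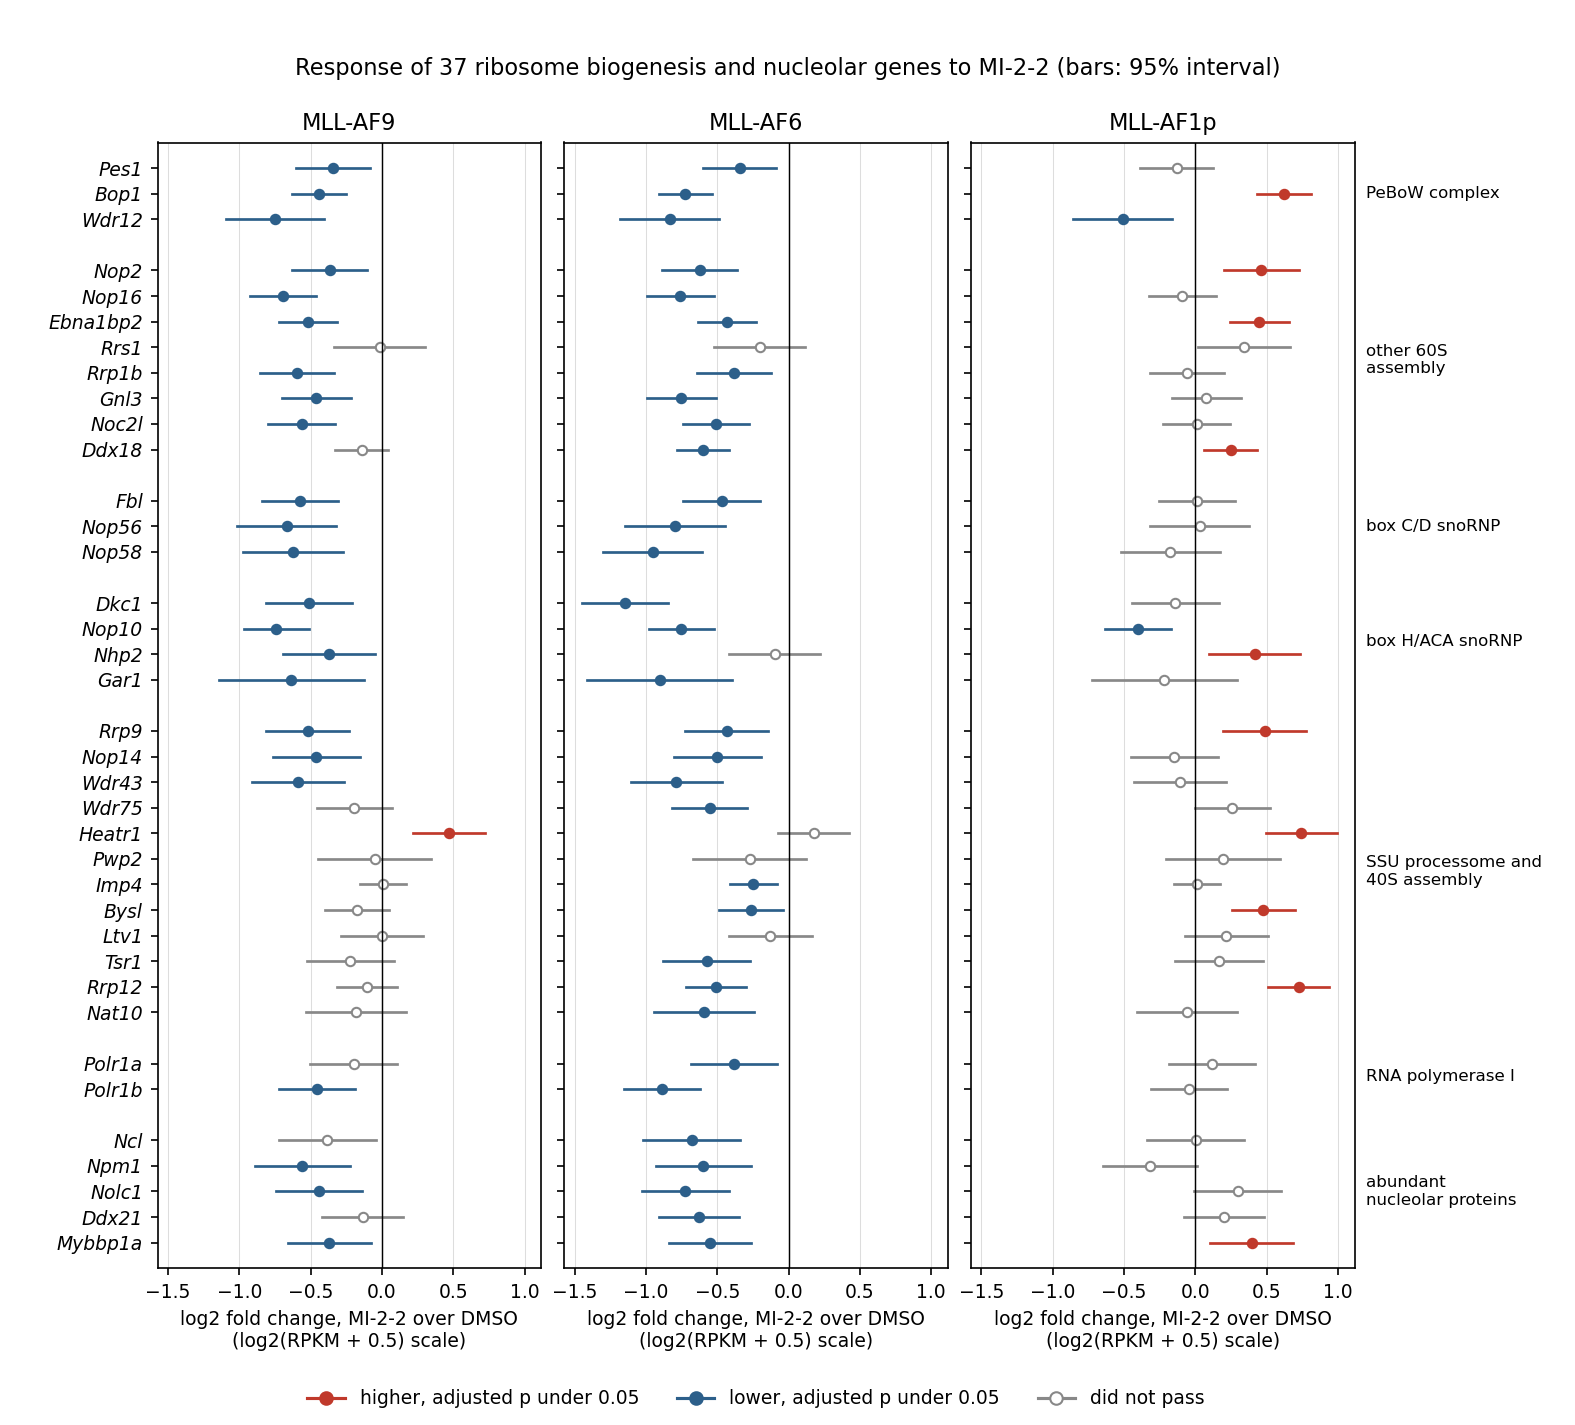
Log2 fold change of each of the 37 genes with MI-2-2 over DMSO (x axis, log2(RPKM + 0.5) scale) in MLL-AF9, MLL-AF6 and MLL-AF1p, with genes grouped by role; points are the limma estimates, bars the 95% intervals, and filled points passed an adjusted p of 0.05. Points lie mostly left of 0 in MLL-AF9 (23 lower) and MLL-AF6 (32 lower) and on both sides of 0 in MLL-AF1p (10 higher, 2 lower).

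Of the 37 members, 22 fell in both MLL-AF9 and MLL-AF6, where 20.1% of all genes tested fell in both. Of these 22, 5 rose in MLL-AF1p (Bop1, Nop2, Ebna1bp2, Rrp9 and Mybbp1a), 2 also fell there (Wdr12 and Nop10) and 15 did not pass there. Another 3, Ddx18, Bysl and Rrp12, fell in MLL-AF6, rose in MLL-AF1p and did not pass in MLL-AF9. Rrs1, Pwp2 and Ltv1 passed in none of the 3 lines with all libraries kept. Genes that fell in all 3 lines made up 11.4% of genes tested and 2 of 37 members.

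The difference between lines was tested directly. The response of 16 members was higher in MLL-AF1p than in MLL-AF9 and of 22 members higher in MLL-AF1p than in MLL-AF6, and no member was lower in either. Over all genes tested, 13.6% were higher and 21.4% lower in MLL-AF1p against MLL-AF9, and 19.5% were higher and 11.6% lower against MLL-AF6. All 37 estimates were positive in both of these comparisons, with medians of 0.42 and 0.68 against medians over all genes of -0.07 and 0.07. Both use the same MLL-AF1p libraries. The all-gene background against MLL-AF9 turned over with scaling: 21.2% of genes tested were higher and 14.7% lower with median centring (median 0.05), and 17.2% and 15.7% with quantile normalization (median 0.02), where 20 and 18 members were higher and none lower. Without MLL-AF6 DMSO replicate 1, 35 members had a higher response in MLL-AF1p than in MLL-AF6, and with libraries numbered 3 left out of every group the 2 counts were 3 against MLL-AF9 and 4 against MLL-AF6.

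MLL-AF6 and MLL-AF9 differed less. The response of 3 members, Dkc1, Ddx18 and Rrp12, was lower in MLL-AF6 than in MLL-AF9 and of none higher, against 24% lower and 9.02% higher among all genes tested. With median centring no member was lower and the background turned over, to 11.6% lower and 14.9% higher, and with quantile normalization 1 member was lower, against 13.1% lower and 11.8% higher. This count depended on the library that stood apart: it was 13 without MLL-AF6 DMSO replicate 1 and 1 without MLL-AF6 DMSO replicate 2, MLL-AF6 DMSO replicate 3, MLL-AF6 MI-2-2 replicate 3 or MLL-AF9 MI-2-2 replicate 3, and 6 without MLL-AF9 DMSO replicate 1. An F test over the 3 lines called 24 of 37 members, against 52.8% of all genes tested.

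RNA polymerase I makes the ribosomal RNA precursor, and its 2 large catalytic subunits, Polr1a and Polr1b, were among the members. Polr1b had 9.629, 10.01 and 8.765 RPKM in the MI-2-2 libraries of MLL-AF9, against 14.0, 14.2 and 11.4 RPKM with DMSO. In MLL-AF6, Polr1b had 7.58, 9.99 and 8.90 RPKM with MI-2-2, against 13.7, 20.2 and 16.7 with DMSO. In MLL-AF1p the values overlapped, at 12.3, 12.5 and 11.6 RPKM with MI-2-2 and 12.4, 13.5 and 11.7 with DMSO. Polr1b fell by 0.45 in MLL-AF9 (log2 scale; SE 0.13; adjusted p = 0.00605) and by 0.89 in MLL-AF6 (SE 0.13; adjusted p = 2.39e-05), and its log2 fold change in MLL-AF1p was -0.04 (adjusted p = 0.8).

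Polr1a, the largest subunit, changed less. It had 6.04, 6.65 and 5.99 RPKM with MI-2-2 and 6.58, 8.80 and 6.48 with DMSO in MLL-AF9, a log2 fold change of -0.20 that did not pass (adjusted p = 0.248). In MLL-AF6, Polr1a had 6.76, 8.44 and 6.76 RPKM with MI-2-2 and 7.38, 12.0 and 10.2 with DMSO, and fell by 0.38 (adjusted p = 0.0308). That call was lost without any 1 of 4 of the 6 libraries, with an adjusted p of up to 0.164 without MLL-AF6 DMSO replicate 2. In MLL-AF1p, Polr1a had 10.4, 9.61 and 9.38 RPKM with MI-2-2 and 9.12, 8.77 and 9.05 with DMSO; the MI-2-2 values all lay above the DMSO values, but the change of 0.12 did not pass (adjusted p = 0.525).

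The box C/D core proteins, which carry out ribose methylation of ribosomal RNA, moved together. Fibrillarin (Fbl), the methyltransferase, had 85.4, 88.8 and 78.1 RPKM with MI-2-2 in MLL-AF9, against 114.5, 151.8 and 113.0 with DMSO. In MLL-AF6, Fbl had 81.5, 99.2 and 88.3 RPKM with MI-2-2, against 99.5, 143.2 and 134.1 with DMSO. In MLL-AF1p, Fbl had 119.6, 118.6 and 117.6 RPKM with MI-2-2, against 120.7, 112.8 and 119.3 with DMSO. The groups were thus apart in MLL-AF9 and in MLL-AF6, there by less than 1 RPKM, and overlapped in MLL-AF1p. Fbl fell by 0.57 in MLL-AF9 (SE 0.13; adjusted p = 0.00116) and 0.47 in MLL-AF6 (adjusted p = 0.00495), with a log2 fold change of 0.01 in MLL-AF1p (95% interval -0.26 to 0.28).

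Nop56 and Nop58, the paired scaffold proteins of the same particle, showed the largest mean falls of this group. Nop58 had 43.9, 50.8 and 43.2 RPKM with MI-2-2 in MLL-AF9, against 67.9, 84.0 and 62.5 with DMSO, and 39.2, 51.6 and 42.7 RPKM in MLL-AF6, against 65.8, 104.8 and 92.8. It fell by 0.62 (adjusted p = 0.00435) and 0.95 (adjusted p = 0.000151). In MLL-AF1p, Nop58 had 80.5, 85.7 and 78.0 RPKM with MI-2-2 and 81.7, 112.6 and 84.3 with DMSO, a change of -0.17 that did not pass (adjusted p = 0.405).

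Nop56 had 71.6, 76.0 and 71.4 RPKM with MI-2-2 in MLL-AF9, against 109.2, 146.5 and 98.3 with DMSO. In MLL-AF6, Nop56 had 61.1, 77.2 and 67.6 RPKM, against 88.7, 150.1 and 127.3, and in MLL-AF1p 110.3, 109.6 and 107.9 RPKM, against 101.1, 121.7 and 99.5. It fell by 0.67 in MLL-AF9 (adjusted p = 0.00268) and 0.80 in MLL-AF6 (adjusted p = 0.00071), and the 0.03 in MLL-AF1p did not pass (adjusted p = 0.899). Its response was higher in MLL-AF1p than in MLL-AF9 by 0.70 (adjusted p = 0.0292), a call lost without any 1 of 8 of the 12 libraries (adjusted p = 0.0683 without MLL-AF9 DMSO replicate 2), and higher than in MLL-AF6 by 0.83 (adjusted p = 0.0136).

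The 4 box H/ACA proteins, which convert uridine to pseudouridine in ribosomal RNA, did not share 1 pattern. Nop10, the smallest of them, fell in all 3 lines. It had 66.1, 64.9 and 69.9 RPKM with MI-2-2 in MLL-AF9, against 140.3, 105.1 and 95.9 with DMSO, and 73.9, 80.3 and 69.5 RPKM in MLL-AF6, against 113.9, 129.8 and 134.1. In MLL-AF1p, Nop10 had 78.9, 84.8 and 78.2 RPKM, against 108.5, 102.7 and 108.7. No MI-2-2 library reached a DMSO library of its line, and the falls were 0.74 (adjusted p = 2.73e-05), 0.75 (adjusted p = 2.66e-05) and 0.40 (adjusted p = 0.00659), each kept with any 1 library left out.

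Nhp2, a partner that binds the snoRNA in the same particle, went the other way in MLL-AF1p. It had 73.9, 84.9 and 68.2 RPKM with MI-2-2 in MLL-AF9, against 87.1, 129.8 and 82.3 with DMSO, and 67.0, 86.9 and 72.1 RPKM in MLL-AF6, against 66.8, 89.8 and 85.8, so the groups overlapped in both lines. In MLL-AF1p, Nhp2 had 107.7, 112.2 and 103.4 RPKM, against 81.5, 81.4 and 78.9, with no overlap. The fall of 0.37 in MLL-AF9 (adjusted p = 0.0464) was lost without any 1 of 3 libraries (adjusted p = 0.275 without MLL-AF9 DMSO replicate 2), and the rise of 0.42 in MLL-AF1p (adjusted p = 0.0344) without any 1 of its 6 (adjusted p up to 0.0927, without MLL-AF1p MI-2-2 replicate 2). The response was nevertheless higher in MLL-AF1p than in MLL-AF9 by 0.79 (SE 0.21; adjusted p = 0.0101), a call that held with each library left out.

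Gar1, the fourth protein of the particle, had 15.2, 19.2 and 15.4 RPKM with MI-2-2 in MLL-AF9, against 21.6, 38.1 and 21.0 with DMSO, and 10.3, 18.9 and 12.5 RPKM in MLL-AF6, against 18.5, 32.5 and 27.9. In MLL-AF1p, Gar1 had 27.7, 31.1 and 29.6 RPKM, against 31.6, 37.2 and 34.3. The groups overlapped in MLL-AF6 and were apart in the other 2 lines. Its spread was the widest of the 4, and the falls of 0.64 in MLL-AF9 (SE 0.24; adjusted p = 0.0335) and 0.90 in MLL-AF6 (SE 0.24; adjusted p = 0.00457) passed, the first being lost without any 1 of 3 libraries (adjusted p up to 0.189, without MLL-AF9 DMSO replicate 2). The change in MLL-AF1p was -0.22 (adjusted p = 0.483).

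Dkc1, which encodes dyskerin, the pseudouridine synthase of the box H/ACA particle, was set apart by its level. It had 178.6, 168.9 and 186.1 RPKM with MI-2-2 and 311.2, 201.4 and 259.9 with DMSO in MLL-AF9. In MLL-AF6, Dkc1 had 21.2, 26.8 and 22.9 RPKM with MI-2-2 and 42.5, 61.2 and 56.1 with DMSO, and in MLL-AF1p 44.5, 45.6 and 42.2 RPKM with MI-2-2 and 45.6, 51.7 and 48.8 with DMSO. Every MLL-AF9 library was above every library of the other lines. Under DMSO, Dkc1 was lower by 2.26 in MLL-AF6 than in MLL-AF9 (log2 scale; SE 0.14; adjusted p = 3.68e-09) and by 2.37 in MLL-AF1p than in MLL-AF9 (adjusted p = 1.85e-09). Its response to MI-2-2 was a fall of 0.51 in MLL-AF9 (adjusted p = 0.00654) and of 1.15 in MLL-AF6 (adjusted p = 6.76e-06), the largest fall of any member in that line, and -0.14 in MLL-AF1p (adjusted p = 0.448).

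The protein partners of dyskerin did not share that difference in level. Under DMSO the log2 difference between MLL-AF6 and MLL-AF9 was 0.16 for Nop10 (adjusted p = 0.216), -0.28 for Nhp2 (adjusted p = 0.126) and -0.01 for Gar1 (adjusted p = 0.968), and none of the 3 passed between MLL-AF1p and MLL-AF9. Nor did its measured protein-coding neighbours on the X chromosome, looked up after these values were seen. Mpp1, next to Dkc1, had 211.7, 145.2 and 155.8 RPKM in MLL-AF6 DMSO, 100.9, 89.0 and 101.8 RPKM in MLL-AF1p DMSO and 184.4, 69.8 and 106.8 RPKM in MLL-AF9 DMSO. Gab3, on its other side, was higher in MLL-AF6 than in MLL-AF9 by 0.48 (adjusted p = 0.00337) and in MLL-AF1p than in MLL-AF9 by 0.36 (adjusted p = 0.0175), the opposite direction to Dkc1. The share of counted reads from Dkc1 alone was 0.0150 ± 0.0027% in MLL-AF6 DMSO and 0.0137 ± 0.00087% in MLL-AF1p DMSO, against 0.0726 ± 0.0155% in MLL-AF9 DMSO (SD, n = 3 each).

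The PeBoW complex, which works on the large subunit, had its 3 members in 3 different patterns. Bop1 gave the smallest p of the F test over the lines. It had 40, 37.91 and 38.04 RPKM with MI-2-2 in MLL-AF9, against 58.7, 57.7 and 43.1 with DMSO, and 28.9, 27.8 and 29.4 RPKM in MLL-AF6, against 45.2, 48.7 and 49.5. In MLL-AF1p, Bop1 had 41.82, 39.43 and 40.03 RPKM, against 26.0, 27.2 and 25.3. The groups did not overlap in any line, and MI-2-2 libraries were the lower ones in MLL-AF9 and MLL-AF6 and the higher ones in MLL-AF1p.

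Bop1 fell by 0.44 in MLL-AF9 (SE 0.09; adjusted p = 0.000563) and 0.72 in MLL-AF6 (SE 0.09; adjusted p = 5.76e-06) and rose by 0.62 in MLL-AF1p (SE 0.09; adjusted p = 4.43e-05). The response was higher in MLL-AF1p than in MLL-AF9 by 1.06 (SE 0.13; adjusted p = 2.07e-05) and than in MLL-AF6 by 1.34 (SE 0.13; adjusted p = 3.72e-06). Under DMSO, Bop1 was lower in MLL-AF1p than in MLL-AF9 by 1.00 (adjusted p = 1.32e-07) and than in MLL-AF6 by 0.86 (adjusted p = 2.57e-06). With MI-2-2 the mean was 38.7 RPKM for MLL-AF9, 28.7 for MLL-AF6 and 40.4 for MLL-AF1p, and with DMSO it was 53.2, 47.8 and 26.2 RPKM in the same order.

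Wdr12 fell in all 3 lines. It had 3.87, 4.39 and 3.98 RPKM with MI-2-2 in MLL-AF9, against 6.00, 9.17 and 6.76 with DMSO, and 5.25, 6.68 and 5.60 RPKM in MLL-AF6, against 8.16, 13.6 and 11.2. In MLL-AF1p, Wdr12 had 9.029, 8.997 and 8.715 RPKM, against 11.8, 14.9 and 12.3. The groups did not overlap in any line, and the falls were 0.75 (adjusted p = 0.00102), 0.83 (adjusted p = 0.000447) and 0.51 (adjusted p = 0.0181). The last was lost without MLL-AF1p DMSO replicate 2 (adjusted p = 0.0824) or MLL-AF1p MI-2-2 replicate 3. Wdr12 was higher under DMSO in MLL-AF1p than in MLL-AF9 by 0.80 (adjusted p = 0.000476).

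Pes1, the third subunit, had 37.4, 39.8 and 37.4 RPKM with MI-2-2 in MLL-AF9, against 43.0, 58.0 and 46.0 with DMSO, and 36.1, 41.1 and 39.2 RPKM in MLL-AF6, against 39.0, 57.5 and 53.5. In MLL-AF1p, Pes1 had 45.4, 44.5 and 46.7 RPKM, against 49.6, 48.6 and 51.6. Groups overlapped only in MLL-AF6. The falls of 0.34 in MLL-AF9 (adjusted p = 0.0241) and 0.34 in MLL-AF6 (adjusted p = 0.0242) were lost without any 1 of 3 and any 1 of 4 libraries (up to adjusted p = 0.13 and 0.124, without DMSO replicate 2 of each line), and the -0.13 in MLL-AF1p did not pass (adjusted p = 0.397).

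Among the other factors of large-subunit assembly, Nop16 was lowered in 2 lines and Ebna1bp2 had opposite signs across lines. Nop16 had 25.0, 26.2 and 24.6 RPKM with MI-2-2 in MLL-AF9, against 38.7, 48.4 and 37.3 with DMSO, and fell by 0.69 (adjusted p = 6.71e-05). In MLL-AF6, Nop16 had 21.5, 23.5 and 21.9 RPKM, against 30.6, 43.8 and 41.3, and fell by 0.76 (adjusted p = 3.01e-05). In MLL-AF1p, Nop16 had 31.4, 31.3 and 30.8 RPKM, against 33.8, 32.6 and 33.4, a small gap without overlap that did not pass (-0.09; adjusted p = 0.526).

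Ebna1bp2, whose yeast counterpart acts early in 60S assembly, had 23.0, 26.3 and 23.1 RPKM with MI-2-2 in MLL-AF9, against 34.1, 39.9 and 30.8 with DMSO, and 20.6, 22.9 and 22.7 RPKM in MLL-AF6, against 26.8, 32.7 and 30.4. In MLL-AF1p, Ebna1bp2 had 37.04, 38.7 and 37.7 RPKM, against 29.9, 25.0 and 28.0. The falls were 0.52 (adjusted p = 0.000287) and 0.43 (adjusted p = 0.00139), and the rise was 0.45 (adjusted p = 0.00146). The response was higher in MLL-AF1p than in MLL-AF9 by 0.97 (SE 0.14; adjusted p = 9.42e-05) and than in MLL-AF6 by 0.88 (SE 0.14; adjusted p = 0.000245), with no call lost when a library was left out.

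Ddx18, an RNA helicase, had 26.9, 28.8 and 26.3 RPKM with MI-2-2 in MLL-AF9, overlapping with 31.4, 33.5 and 26.2 with DMSO. In MLL-AF6, Ddx18 had 23.6, 26.8 and 24.8 RPKM, against 34.5, 42.8 and 37.6, and fell by 0.60 (adjusted p = 2.98e-05). In MLL-AF1p, Ddx18 had 40.6, 40.2 and 40.8 RPKM, against 34.7, 33.6 and 33.8, without overlap, and the rise of 0.25 (adjusted p = 0.0293) was lost without any 1 of 5 of the 6 libraries (up to adjusted p = 0.0735, without MLL-AF1p MI-2-2 replicate 3). Its response was higher in MLL-AF1p than in MLL-AF6 by 0.85 (SE 0.12; adjusted p = 0.000146).

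Rrs1, which brings 5S ribosomal RNA into the particle in yeast, was one of the 3 members that passed in no line with all libraries kept. It had 27.5, 28.4 and 25.8 RPKM with MI-2-2 and 23.5, 33.9 and 26.2 with DMSO in MLL-AF9. In MLL-AF6, Rrs1 had 30.0, 37.8 and 33.0 RPKM with MI-2-2 and 30.1, 46.4 and 41.1 with DMSO, and in MLL-AF1p 40.9, 40.4 and 38.7 RPKM with MI-2-2 and 28.5, 37 and 29.5 with DMSO. The groups overlapped in the first 2 lines and not in MLL-AF1p, where the change of 0.34 did not pass (adjusted p = 0.0761). Of the 8 members in this group, 3 rose in MLL-AF1p, 7 fell in MLL-AF6 and 6 fell in MLL-AF9. The matching shares of all genes tested were 19.1%, 38.9% and 27.9%. Gnl3, which encodes nucleostemin, fell by 0.46 in MLL-AF9 (adjusted p = 0.00265) and 0.75 in MLL-AF6 (adjusted p = 4.15e-05), with 0.08 in MLL-AF1p (adjusted p = 0.603). Noc2l fell by 0.56 (adjusted p = 0.000443) and 0.51 (adjusted p = 0.00106) in the same 2 lines, with 0.0092 in MLL-AF1p (adjusted p = 0.955). Rrp1b fell by 0.59 (adjusted p = 0.000705) and 0.38 (adjusted p = 0.0149), the last being lost without any 1 of 3 libraries, up to adjusted p = 0.0869 without MLL-AF6 DMSO replicate 2.

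**Figure D2:**
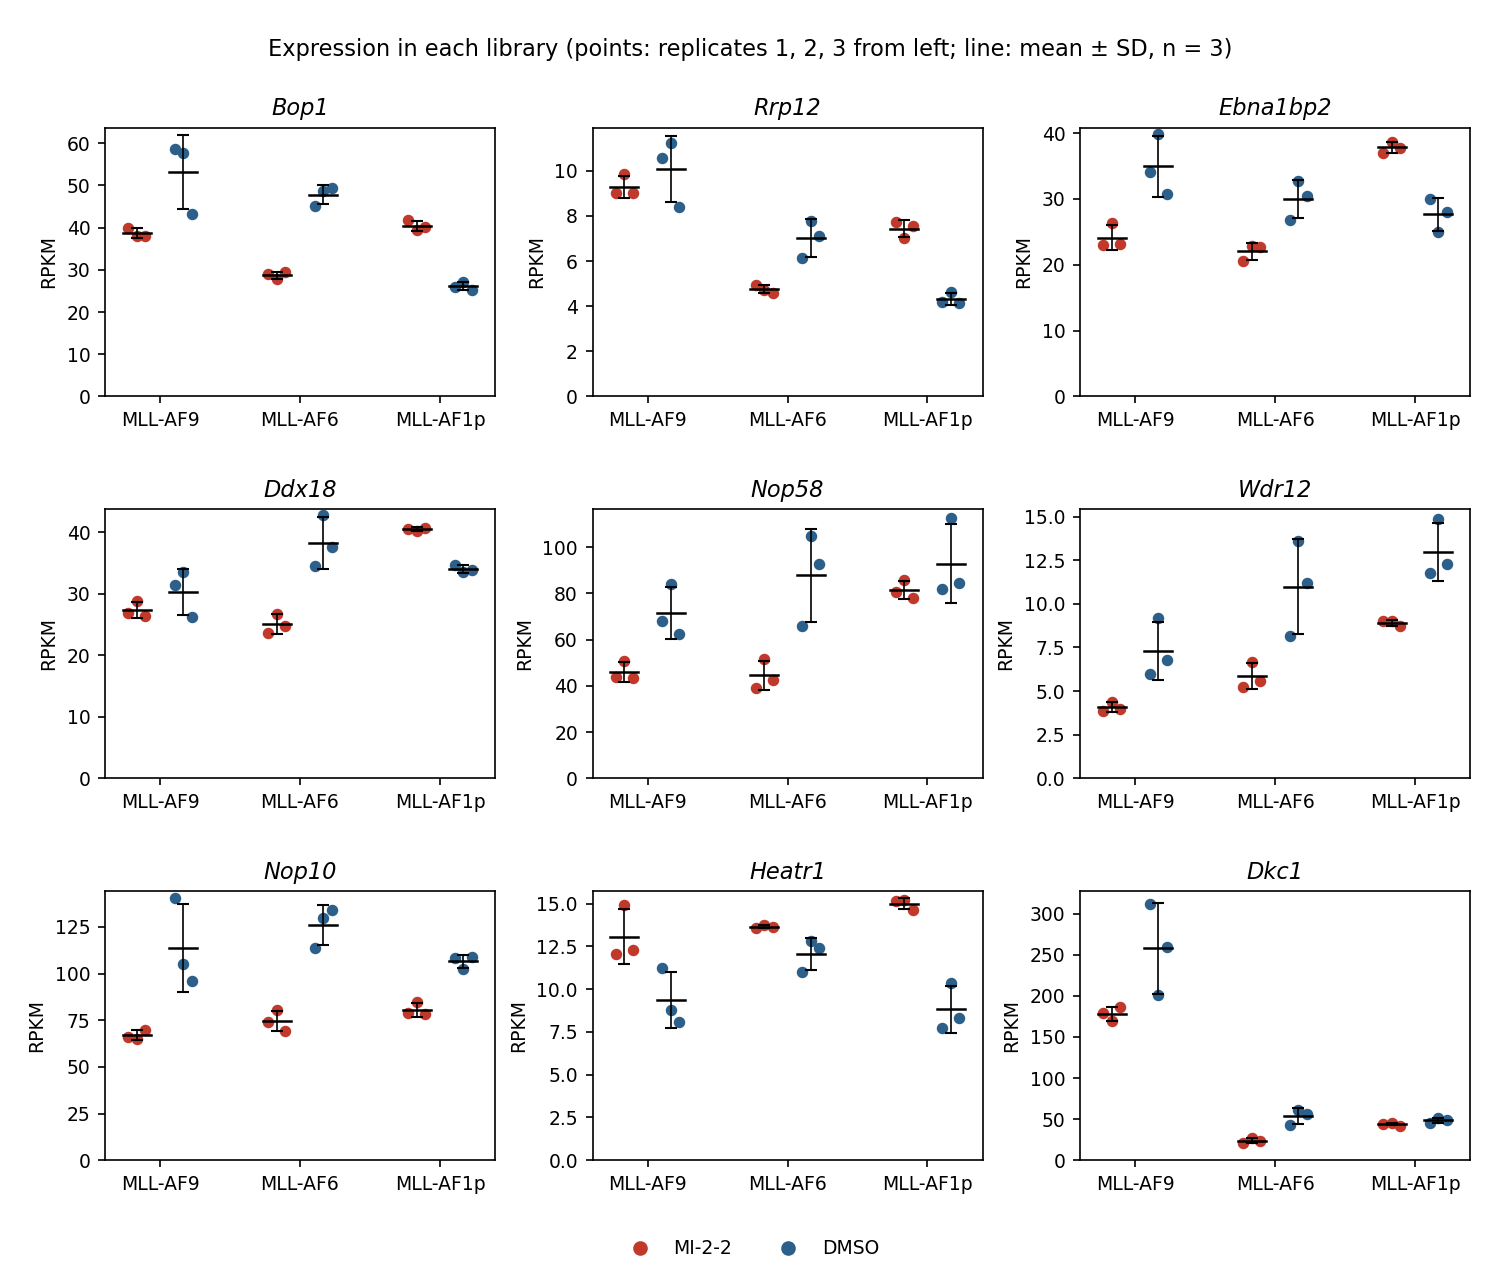
RPKM of 9 of the genes in every library (y axes start at 0), with MI-2-2 in red left of DMSO in blue for each line; points are replicates 1, 2 and 3 from left, black lines the mean and SD of 3 libraries. Bop1 and Ebna1bp2 show MI-2-2 libraries below DMSO libraries in MLL-AF9 and MLL-AF6 and above them in MLL-AF1p, Wdr12 and Nop10 show them below in all 3 lines, and Dkc1 stands higher in every MLL-AF9 library than in any other.

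The 12 members of the SSU processome and of 40S assembly were the least lowered group in MLL-AF9, where 3 fell, Heatr1 rose and 8 did not pass. Those 3 falls were near the share of all genes tested that fell in MLL-AF9, 27.9%. In MLL-AF6, 9 fell, against 38.9% of all genes tested. In MLL-AF1p 4 rose and none fell, against 19.1% and 26.3% of all genes tested. Heatr1, a large scaffold protein known in yeast as Utp10, had 12.0, 14.9 and 12.3 RPKM with MI-2-2 in MLL-AF9, against 11.2, 8.77 and 8.08 with DMSO. In MLL-AF6, Heatr1 had 13.6, 13.7 and 13.7 RPKM, against 11, 12.81 and 12.38, and in MLL-AF1p 15.1, 15.2 and 14.6 RPKM, against 7.75, 10.4 and 8.34. The MI-2-2 libraries were the higher ones in all 3 lines. The rises of 0.47 in MLL-AF9 (SE 0.12; adjusted p = 0.00308) and 0.74 in MLL-AF1p (SE 0.12; adjusted p = 0.00011) passed, and the 0.18 in MLL-AF6 did not (adjusted p = 0.214). Heatr1 shares 155 bases with Lgals8 on the other strand, and reads there cannot be assigned to either, as the kit does not mark strand; the same holds for 361 bases of Bysl and Ccnd3, 50 bases of Bop1 and Mroh1 and 45 bases of Dkc1 and Mpp1.

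Rrp12, needed for the export of both subunits in yeast, had 9, 9.847 and 9 RPKM with MI-2-2 in MLL-AF9, overlapping with 10.6, 11.2 and 8.42 with DMSO. In MLL-AF6, Rrp12 had 4.95, 4.71 and 4.60 RPKM, against 6.12, 7.79 and 7.09, and fell by 0.51 (adjusted p = 0.000468). In MLL-AF1p, Rrp12 had 7.75, 7.03 and 7.54 RPKM, against 4.17, 4.62 and 4.14, and rose by 0.72 (SE 0.10; adjusted p = 2.97e-05). The response was higher in MLL-AF1p than in MLL-AF9 by 0.83 (adjusted p = 0.000434) and than in MLL-AF6 by 1.23 (adjusted p = 2.08e-05). Under DMSO Rrp12 was lower in MLL-AF1p than in MLL-AF9 by 1.13 (adjusted p = 1.18e-07) and than in MLL-AF6 by 0.64 (adjusted p = 9.72e-05).

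Wdr43, an early SSU processome factor, had 21.8, 23.0 and 20.6 RPKM with MI-2-2 in MLL-AF9, against 34.1, 34.7 and 30.4 with DMSO, and fell by 0.59 (adjusted p = 0.00371). In MLL-AF6, Wdr43 had 18.1, 21.9 and 18.8 RPKM, against 25.2, 42.5 and 36.9, and fell by 0.79 (adjusted p = 0.000401). In MLL-AF1p the values overlapped, at 29.8, 31.4 and 28.1 RPKM with MI-2-2 and 28.2, 38.5 and 30.3 with DMSO (-0.11; adjusted p = 0.597).

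Rrp9, a U3 snoRNP protein, had 16.7, 19.1 and 15.8 RPKM with MI-2-2 in MLL-AF9, against 23.0, 30.4 and 21.8 with DMSO, and 13.5, 16.3 and 15.2 RPKM in MLL-AF6, against 16.3, 24.4 and 21.4. In MLL-AF1p, Rrp9 had 21.1, 20.6 and 21.1 RPKM, against 14.6, 16.2 and 13.7. The groups were apart in all 3 lines, in MLL-AF6 by less than 0.1 RPKM, with the opposite sign in MLL-AF1p. The falls were 0.52 (adjusted p = 0.00444) and 0.44 (adjusted p = 0.0136), the second being lost without any 1 of 2 libraries (up to adjusted p = 0.0749), and the rise was 0.49 (adjusted p = 0.00922).

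Bysl (bystin), which acts in late 40S assembly, had 12.6, 11.6 and 11.7 RPKM with MI-2-2 and 14.5, 14.0 and 12.4 with DMSO in MLL-AF9, where the change of -0.17 did not pass (adjusted p = 0.169). In MLL-AF6, Bysl had 9.42, 9.32 and 9.09 RPKM, against 10.1, 11.6 and 12.1, a fall of 0.27 (adjusted p = 0.0411) lost without any 1 of 5 of the 6 libraries (up to adjusted p = 0.144, without MLL-AF6 DMSO replicate 3). In MLL-AF1p, Bysl had 10.22, 10.05 and 10.03 RPKM, against 6.06, 8.87 and 6.69, and rose by 0.48 (adjusted p = 0.0017). Wdr75, Tsr1 and Nat10 fell in MLL-AF6 by 0.55, 0.57 and 0.59 (adjusted p = 0.00135, 0.00314 and 0.00638) and passed in neither other line. Nop14 fell by 0.46 in MLL-AF9 (adjusted p = 0.0125; 0.0705 without MLL-AF9 DMSO replicate 2) and 0.50 in MLL-AF6 (adjusted p = 0.0076). Pwp2, at 5.89 to 11.2 RPKM over the 18 libraries, and Ltv1, at 19.3 to 30.0, passed in no line with all libraries kept.

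Of the abundant nucleolar proteins, Npm1 (nucleophosmin, a chaperone that moves between nucleolus and cytoplasm) was higher in MLL-AF1p than in the other lines under each treatment. It had 122.6, 133.9 and 119.8 RPKM with MI-2-2 in MLL-AF9, against 158.5, 223.8 and 178.3 with DMSO, and 107.6, 130.1 and 108.6 RPKM in MLL-AF6, against 127.7, 218.7 and 190.0. In MLL-AF1p, Npm1 had 205.8, 219.2 and 208.3 RPKM, against 248.0, 280.2 and 262.5. The groups overlapped only in MLL-AF6. The falls of 0.56 in MLL-AF9 (adjusted p = 0.00652) and 0.60 in MLL-AF6 (adjusted p = 0.00419) passed, and the -0.32 in MLL-AF1p did not (adjusted p = 0.109). The table's gene length for Npm1 is 4125 bases, against 1633 for its longest coding transcript in a current annotation (2.53 times), so its level per length is lower than one from that transcript would be.

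Mybbp1a, which binds Myb and represses RNA polymerase I transcription, had 48.9, 53.1 and 46.9 RPKM with MI-2-2 in MLL-AF9, against 59.5, 80.8 and 55.0 with DMSO, and 41.7, 51.2 and 44.7 RPKM in MLL-AF6, against 54.0, 79.6 and 70.4. In MLL-AF1p, Mybbp1a had 73.0, 70.3 and 69.2 RPKM, against 54.9, 52.8 and 53.4. The groups were apart in all 3 lines, and the sign in MLL-AF1p was the opposite one. The fall of 0.37 in MLL-AF9 (adjusted p = 0.0302) and the rise of 0.40 in MLL-AF1p (adjusted p = 0.0269) were lost without any 1 of 3 and any 1 of 5 libraries (up to adjusted p = 0.172 without MLL-AF9 DMSO replicate 2, and 0.0768 without MLL-AF1p MI-2-2 replicate 1), while the fall of 0.55 in MLL-AF6 held (adjusted p = 0.00289). The response was higher in MLL-AF1p than in MLL-AF9 by 0.77 (adjusted p = 0.00656). Ncl (nucleolin) ranged over the 18 libraries from 57.9 to 128.9 RPKM and fell in MLL-AF6 by 0.68 (adjusted p = 0.00201), passing in neither of the other 2 lines. Nolc1, a chaperone of snoRNPs, had 9.38, 10.3 and 9.28 RPKM with MI-2-2 in MLL-AF9, against 12.8, 15.7 and 11.7 with DMSO, and 7.14, 8.70 and 7.78 RPKM in MLL-AF6, against 9.85, 16.6 and 14.4. In MLL-AF1p, Nolc1 had 11.52, 10.99 and 10.73 RPKM, against 8.74, 9.36 and 8.68, apart but not passing (0.30; adjusted p = 0.102). Its level is on a table length 4.01 times that of its longest coding transcript. Ddx21, a helicase, fell in MLL-AF6 by 0.63 (adjusted p = 0.000868) and passed in neither other line.

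In the solvent controls, kept for the same 6 days, the shares of members lower in MLL-AF1p were near those of all genes. The shares of members higher were below those of all genes. Under DMSO, 11 members (29.7%) were lower and 3 (8.11%) higher in MLL-AF1p than in MLL-AF9, against 28.6% lower and 36.5% higher among all genes tested (33.9% and 30.5% with median centring). Against MLL-AF6, 10 members (27%) were lower and 1 (2.7%), Npm1, higher in MLL-AF1p, against 23.7% and 28.8% of genes tested. Without MLL-AF6 DMSO replicate 1, 19 members (51.4%) were lower, against 20.2% of genes tested, and 3 were higher without MLL-AF6 DMSO replicate 2. MLL-AF6 had 9 members (24.3%) higher and 4 (10.8%) lower than MLL-AF9, against 29.1% and 24.5% of genes tested (23.7% and 29.6% with median centring); the 9 became 14 without MLL-AF6 DMSO replicate 1, 2 without MLL-AF6 DMSO replicate 2, 4 without MLL-AF6 DMSO replicate 3 and 5 without MLL-AF9 DMSO replicate 3, and the 4 became 7 without MLL-AF9 DMSO replicate 3. The genes lower in MLL-AF1p than in MLL-AF9 with each library left out in turn were Bop1, Bysl, Dkc1, Ebna1bp2, Nolc1, Nop2, Rrp12 and Rrp9, and Imp4, Npm1 and Wdr12 were the higher ones. The 3 higher members became 8 without MLL-AF9 DMSO replicate 2 and 5 without MLL-AF1p DMSO replicate 1. Bop1, Bysl, Ebna1bp2, Nop2, Rrp12 and Rrp9 were also among the 10 members that rose with MI-2-2 in MLL-AF1p. The DMSO libraries of MLL-AF1p enter both comparisons, so this is given as values side by side and not as a relation.

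Summed over the members, the share of counted reads was 0.400%, 0.426% and 0.394% in MLL-AF9 MI-2-2 libraries, against 0.545%, 0.612% and 0.499% in MLL-AF9 DMSO. It was 0.316%, 0.378% and 0.332% in MLL-AF6 MI-2-2, against 0.407%, 0.620% and 0.553% in MLL-AF6 DMSO. In MLL-AF1p it was 0.517%, 0.525% and 0.507% with MI-2-2, against 0.485%, 0.553% and 0.499% with DMSO. The groups were apart in MLL-AF9 and MLL-AF6 and overlapped in MLL-AF1p. Without Dkc1 the means were 0.356 ± 0.0193% with MI-2-2 and 0.479 ± 0.0675% with DMSO in MLL-AF9 (SD, n = 3 each).

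**Figure D3:**
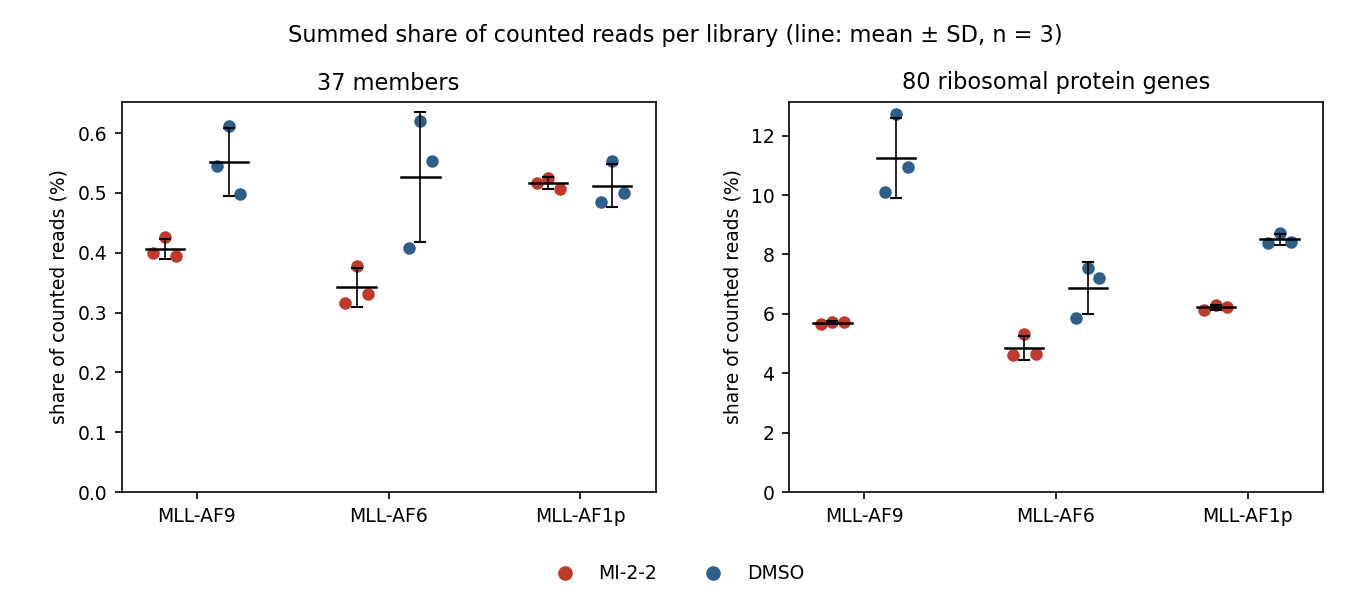
Share of counted reads per library (y axes, %, starting at 0) taken by the 37 genes and by 80 cytosolic ribosomal protein genes, MI-2-2 in red left of DMSO in blue for each line, with mean and SD of 3 libraries. The 37 genes overlap between treatments in MLL-AF1p, at 0.507 to 0.525% with MI-2-2 and 0.485 to 0.553% with DMSO, whereas the ribosomal protein genes are lower with MI-2-2 in all 3 lines.

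The wider ribosome biogenesis genes, listed from general knowledge of the pathway, also fell far more often than they rose in MLL-AF9 and MLL-AF6. In MLL-AF1p they went both ways. Of 123 such genes that are not members, 2 rose and 68 fell in MLL-AF9, none rose and 102 fell in MLL-AF6, and 21 rose and 18 fell in MLL-AF1p. Without MLL-AF6 DMSO replicate 1, 107 fell in MLL-AF6. With all libraries, their median log2 fold changes were -0.28, -0.44 and -0.02. The response of 43 of them was higher, and of 1 lower, in MLL-AF1p than in MLL-AF9, against 13.6% and 21.4% of all genes tested. Among all genes tested, 28.5% rose and 27.9% fell in MLL-AF9, and 18% rose and 38.9% fell in MLL-AF6. In MLL-AF1p 19.1% rose and 26.3% fell, so the 21 rises of 123 there were near the all-gene share.

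Within this list, Rcl1, an SSU processome protein, fell in all 3 lines, by 1.21 for MLL-AF9 (adjusted p = 1.4e-07), 1.15 for MLL-AF6 (adjusted p = 2.91e-07) and 0.44 for MLL-AF1p (adjusted p = 0.00368). Imp3, of the same particle, fell by 0.90, 0.70 and 0.44 in MLL-AF9, MLL-AF6 and MLL-AF1p (adjusted p = 3.92e-07, 6.5e-06 and 0.000687). Polr1e, an RNA polymerase I subunit, fell by 0.74 in MLL-AF9 (adjusted p = 6.01e-06) and 0.70 in MLL-AF6 (adjusted p = 1.29e-05) and rose by 0.29 in MLL-AF1p (adjusted p = 0.0179). Taf1d, a subunit of the promoter selectivity factor of RNA polymerase I, fell by 0.80, 0.61 and 0.44 in the 3 lines (adjusted p = 3.26e-07, 7.15e-06 and 0.000238).

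Genes for the ribosome's own proteins did not follow the members in MLL-AF1p. Of 79 cytosolic ribosomal protein genes tested, 76 fell and none rose in MLL-AF9, 74 fell and none rose in MLL-AF6, and 72 fell and 2 rose in MLL-AF1p. Their medians were -0.98, -0.48 (-0.60 without MLL-AF6 DMSO replicate 1) and -0.49. Their summed share of counted reads was 6.13 to 6.28% in MLL-AF1p MI-2-2 libraries, against 8.37 to 8.73% in MLL-AF1p DMSO. In MLL-AF1p the ribosomal protein genes were thus lower by a median of 0.49 while the 37 members had a median change of 0.08, a contrast given as counts with no test between the lists. Reads of ribosomal protein genes can be exchanged with those of their many processed pseudogenes.

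The long noncoding host genes that carry snoRNAs in their introns fell in every line, with 7 of 9 lower in MLL-AF9, 9 of 9 in MLL-AF6 and 6 of 9 in MLL-AF1p. Of all genes tested, 27.9%, 38.9% and 26.3% fell, in the same order of lines. Snhg4 fell by 1.60 for MLL-AF9 (adjusted p = 1.27e-09), 1.41 for MLL-AF6 (adjusted p = 5.21e-09) and 0.38 for MLL-AF1p (adjusted p = 0.00363). Among the members, 7 also hold snoRNAs in their introns (Gnl3, Nop56, Nop58, Dkc1, Wdr43, Tsr1 and Ncl). All 7 fell in MLL-AF6, 5 fell in MLL-AF9, and none passed in MLL-AF1p, where their median was 0.0016. Of the 30 other members, 25 fell in MLL-AF6 and 18 in MLL-AF9, so falls were common in both sets. In MLL-AF1p, 10 of those 30 rose and 2 fell, with a median of 0.20.

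**Figure D4:**
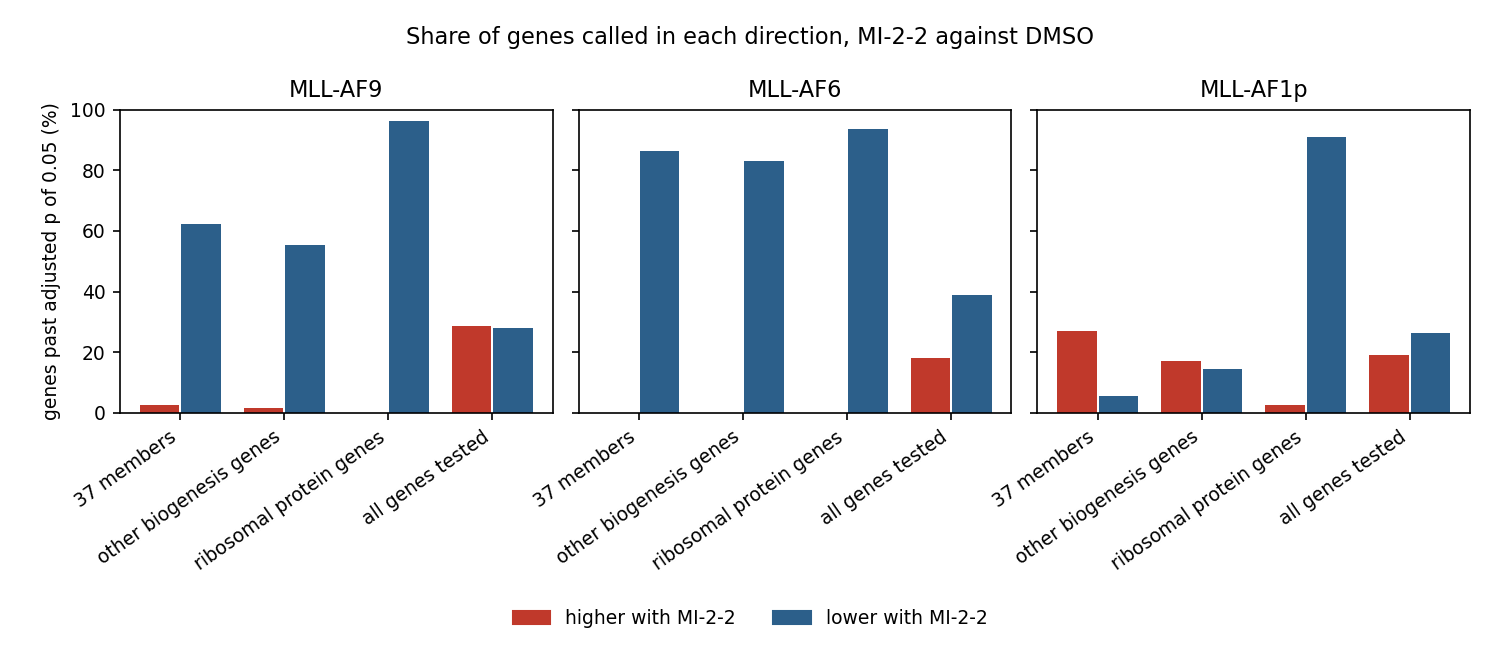
Percent of genes (y axis) that passed an adjusted p of 0.05 higher (red) or lower (blue) with MI-2-2 against DMSO, for the 37 members, 123 other ribosome biogenesis genes, 79 ribosomal protein genes and all 11238 genes tested in each line. In MLL-AF1p the members' bars are 27% higher and 5.41% lower, while most ribosomal protein genes are lower there as in MLL-AF9 and MLL-AF6.

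Myc itself, the known activator of many of these genes, was measured in the same libraries. It had 13.7, 14.3 and 13.9 RPKM with MI-2-2 in MLL-AF9, against 27.4, 43.3 and 38.0 with DMSO, and 7.29, 13.7 and 10.2 RPKM in MLL-AF6, against 12.2, 26.7 and 21.1. In MLL-AF1p, Myc had 15.9, 15.0 and 15.2 RPKM, against 21.9, 22.0 and 21.7. The groups were apart in MLL-AF9 and MLL-AF1p and overlapped in MLL-AF6. The test below used a single spread for all 6 groups, and the MLL-AF1p DMSO libraries lay closer together than the DMSO libraries of the other lines. Myc fell by 1.32 in MLL-AF9 (adjusted p = 2e-04) and 0.88 in MLL-AF6 (adjusted p = 0.00486; -1.19 without MLL-AF6 DMSO replicate 1), and the log2 fold change of -0.49 in MLL-AF1p did not pass (adjusted p = 0.0984).

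Mxd1, whose protein competes with Myc for its partner Max, rose in all 3 lines, by 1.23, 1.07 and 1.35 (adjusted p = 6.37e-09, 3.06e-08 and 4.6e-09). Max rose by 0.29 in MLL-AF1p (adjusted p = 0.000497) and did not pass in MLL-AF9 or MLL-AF6. Mycn was listed at 0 in every library. The part of Myc and its network in the members' changes was not tested.

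The promoter sequence of the members was also read, as a description only. RefSeq promoter windows (250 bases before to 50 after the start, mouse build GRCm38.p6) were matched by symbol for 32 of 37 members. The E-box CACGTG, the letters that Myc and Max are known to bind and which read the same on both strands, was in 7 of 32 windows (21.9%), against 905 of 8349 windows (10.8%) of genes tested and 1957 of 27025 (7.24%) of all windows. The ETS factor motif CCGGAAGT, sought on both strands, was in 8 of 32 (25%), against 9.22% of genes tested and 4% of all windows. Neither the NRF1 motif nor the ZBTB33 motif was found in the 32, and they were in 2.32% and 1.11% of windows of genes tested.

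The 150 bases before the start of 3 members are given because they hold the motifs in genes with contrasting responses: Nop2 (a ribosomal RNA methyltransferase that rose in MLL-AF1p and was lower in the other 2 lines), Imp4 (an SSU processome protein that passed in MLL-AF6, lower, and in neither other line) and Heatr1 (which rose in MLL-AF9 and MLL-AF1p). Each is on the plus strand and is written 5′ to 3′, ending at the base before the start. Capitals mark the E-box in Nop2 and Imp4, whose first base is at -60 and -121, and the ETS motif in Heatr1, at -16.
Nop2, chr6:125131733-125131882: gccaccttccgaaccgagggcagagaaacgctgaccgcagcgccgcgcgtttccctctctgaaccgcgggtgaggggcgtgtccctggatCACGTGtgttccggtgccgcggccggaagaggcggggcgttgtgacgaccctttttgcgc
Imp4, chr1:34439679-34439828: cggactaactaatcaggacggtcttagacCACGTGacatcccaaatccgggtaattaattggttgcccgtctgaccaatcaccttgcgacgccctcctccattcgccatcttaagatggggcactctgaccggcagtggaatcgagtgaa
Heatr1, chr13:12395225-12395374: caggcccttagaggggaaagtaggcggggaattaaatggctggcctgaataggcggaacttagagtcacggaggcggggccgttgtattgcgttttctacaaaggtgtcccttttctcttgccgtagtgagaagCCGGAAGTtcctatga

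The responses of members with and without these letters overlapped. The 7 with the E-box had a median log2 fold change of -0.34 for MLL-AF9, -0.55 for MLL-AF6 and 0.17 for MLL-AF1p, and the 25 without it -0.46, -0.60 and 0.03. The 8 with the ETS motif had medians of -0.30, -0.35 and 0.21, and the 24 without it -0.45, -0.63 and 0.01. In MLL-AF6, 4 of the 8 with the ETS motif fell and 24 of the 24 without it did. Without MLL-AF6 DMSO replicate 1 these were 6 of the 8 and 24 of the 24, with medians of -0.52 and -0.81, and the medians with and without the E-box were -0.71 and -0.76. These are descriptions of short letter matches and say nothing about binding.

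Nop2 had 29.3, 31.0 and 29.1 RPKM with MI-2-2 in MLL-AF9, against 39.9, 43.3 and 33.2 with DMSO, and 24.2, 26.5 and 25.4 RPKM in MLL-AF6, against 30.9, 46.1 and 42.5. In MLL-AF1p, Nop2 had 34.0, 32.1 and 31.6 RPKM, against 22.3, 26.4 and 21.9. The groups did not overlap in any line, and the log2 fold changes were -0.37 (adjusted p = 0.0193), -0.62 (adjusted p = 0.000548) and 0.46 (adjusted p = 0.0066). The first was lost without any 1 of 3 libraries (up to adjusted p = 0.0851, without MLL-AF9 DMSO replicate 2). Imp4 had 26.4, 25.8 and 26.4 RPKM with MI-2-2 and 27.0, 27.3 and 24.1 with DMSO in MLL-AF9, and fell in MLL-AF6 by 0.25 (adjusted p = 0.0119), a call lost without MLL-AF6 DMSO replicate 2 (adjusted p = 0.0667) or MLL-AF6 MI-2-2 replicate 1.

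The expression table has an entry named Rn45s, after the ribosomal RNA precursor that these proteins act on. It had 1359, 2488 and 1093 RPKM with MI-2-2 in MLL-AF9, against 3268, 3308 and 2653 with DMSO, and 1644, 1598 and 1754 RPKM in MLL-AF6, against 1774, 2166 and 2011. In MLL-AF1p, Rn45s had 1634, 1253 and 1490 RPKM, against 1997, 2242 and 1886. The MI-2-2 libraries were the lower ones in all 3 lines, but only the fall of 0.98 in MLL-AF9 passed (adjusted p = 0.000938; adjusted p = 0.329 in MLL-AF6 and 0.0692 in MLL-AF1p). Mature ribosomal RNA is cut from the precursor, so reads of this entry can come from either and do not measure the precursor alone. Ribosomal RNA has no polyA tail, so in polyA libraries the level of Rn45s also depends on how much the purification let through. Neither was tested.

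Cell state moved with the same treatment. Neutrophil marker genes rose, 17 of 17 tested for MLL-AF9, 16 for MLL-AF6 and 15 for MLL-AF1p, and of 17 monocyte and macrophage markers tested 15, 13 and 15 rose. Of all genes tested, 28.5%, 18% and 19.1% rose, in the same order of lines. In MLL-AF6, 2 of the monocyte and macrophage markers fell. The summed share of reads of the neutrophil list was 1.70 to 1.97% with MI-2-2 and 0.184 to 0.241% with DMSO in MLL-AF9. It was 1.28 to 1.35% and 0.195 to 0.226% in MLL-AF6, and 1.97 to 2.19% and 0.236 to 0.253% in MLL-AF1p. For the monocyte and macrophage list the share was 1.062 to 1.299% with MI-2-2 and 0.2163 to 0.4126% with DMSO in MLL-AF9. In MLL-AF6 it was 1.983 to 2.588% and 0.6715 to 0.979%, and in MLL-AF1p 1.005 to 1.057% and 0.4731 to 0.4877%. Both summed shares were higher with MI-2-2 in all 3 lines. Of 18 proliferation genes, 15 rose in MLL-AF9, 5 rose and 1 fell in MLL-AF6, and 3 rose and 1 fell in MLL-AF1p. The share of all genes tested that fell was 38.9% in MLL-AF6 and 26.3% in MLL-AF1p. The 3 rises in MLL-AF1p were near the all-gene share of 19.1%. The part of differentiation or cell division in the members' values was not tested. B cell, T cell, erythroid and stromal markers were low, each list at no more than 0.00151% of counted reads in any library. Ms4a1, Ebf1, Cd3e, Hbb-b1 and Hba-a1 were among those at 0 in all. The highest value in any library was 2.443 RPKM for the B cell list and 2.237 for the T cell list. Cd79b of the B cell list and Lck of the T cell list passed the filter on low values, and both fell with MI-2-2 in MLL-AF6.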

How the data were processed

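RNA from 18 libraries (TruSeq mRNA, polyA selected, per the labels' protocols; this kit is known not to mark strand) was given as RPKM per gene in a table the authors deposited on mouse build mm9. CASAVA 1.8.2, Bowtie2 2.0.0.7, HTSeq and edgeR are named in the submitters' processing notes without their roles. RPKM times gene length gave whole reads for 100% of values (tolerance 0.05), from which depth (21180926 to 56304997 reads per library) was taken; intervals cover the spread between libraries.

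Genes with an RPKM of at least 1 in at least 3 libraries were kept (11238 of 23418). limma 3.58.1 in R 4.3.3 was fitted to log2(RPKM + 0.5) with 6 group means (12 residual degrees of freedom, trended prior), and p-values were adjusted by Benjamini-Hochberg over all genes tested. Differences between lines were tested as contrasts of the same fit. On simulated data with 200 changed genes among 11238, for MLL-AF9, 40% of the 50 genes changed 1.3-fold and 94% of those changed 2-fold were called. Far more genes passed in the data (28.5% higher and 27.9% lower in MLL-AF9). The adjusted p cutoff was therefore stricter in the simulation, and its rates are not those of the data. Python 3.11.15 and matplotlib 3.10.9 drew the figures. Gene lists and members were chosen with earlier results of these data known.

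Values in every library are given for the members with the largest and smallest mean change in each role, all members of roles with up to 3, the 4 smallest p of the F test and members that moved against the median. Others were added after their values were seen. Alternatives were another pseudocount, no filter, median centring, quantile normalization, the total without Rn45s, lines fitted alone, the replicate number as a block, and each library left out. Promoter sequences came from RefSeq (GRCm38.p6), whose coordinates are not those of mm9.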

Additional observations from a re-analysis of the deposited data

Results flagged for a closer look

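The response to MI-2-2 differed between lines for 25 members by limma's test of the difference itself, at an adjusted p under 0.05, in 41 gene and line-pair combinations. The values are differences of log2 fold changes, and the 3 pairs share libraries.

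Against MLL-AF6, the response in MLL-AF1p was higher by 1.34 for Bop1, 1.23 for Rrp12, 1.09 for Nop2, 1.02 for Nolc1, 1.01 for Dkc1, 0.95 for Mybbp1a, 0.92 for Rrp9, 0.88 for Ebna1bp2, 0.85 for Ddx18, 0.84 for Polr1b and 0.83 for Ddx21. It was higher by 0.83 for Gnl3, 0.83 for Nop56, 0.81 for Wdr75, 0.78 for Nop58, 0.74 for Bysl, 0.74 for Tsr1, 0.68 for Ncl, 0.68 for Wdr43, 0.67 for Nop16, 0.57 for Heatr1 and 0.52 for Noc2l. Of these 22 calls, 19 held with each library left out in turn, and those of Ncl, Wdr43 and Noc2l did not.

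Against MLL-AF9, the response in MLL-AF1p was higher by 1.06 for Bop1, 1.01 for Rrp9, 0.97 for Ebna1bp2, 0.83 for Nop2, 0.83 for Rrp12, 0.79 for Nhp2, 0.77 for Mybbp1a and 0.74 for Nolc1. It was higher by 0.70 for Nop56, 0.65 for Bysl, 0.60 for Nop16, 0.59 for Fbl, 0.57 for Noc2l, 0.54 for Gnl3, 0.53 for Rrp1b and 0.39 for Ddx18. Of these 16 calls, 13 held with each library left out in turn, and those of Nop56, Rrp1b and Ddx18 did not.

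Between MLL-AF6 and MLL-AF9 the difference was -0.64 for Dkc1, -0.46 for Ddx18 and -0.41 for Rrp12. Of these, Dkc1 and Rrp12 did not pass without some single libraries (up to adjusted p = 0.0637 without MLL-AF6 MI-2-2 replicate 1, and 0.0922 without MLL-AF9 DMSO replicate 3). Without MLL-AF6 DMSO replicate 1, 13 members passed between MLL-AF6 and MLL-AF9 and 35 between MLL-AF1p and MLL-AF6, the 3 and 22 above among them.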

How the results depend on the processing

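Of 6327 member values recomputed, 258 had the other sign, none of which passed in either fit. Medians near 0 did turn with scaling: over all genes, that of the MLL-AF1p minus MLL-AF9 response was 0.05 with median centring and 0.02 with quantile normalization (-0.07 without), and the members' median under DMSO for MLL-AF6 minus MLL-AF9 was -0.02 with median centring (0.04 without). Leaving out single libraries or all libraries of 1 replicate number (the last chosen after seeing the data, as was limma voom on recovered reads) gave 10 to 25 members lower in MLL-AF9, 15 to 35 lower in MLL-AF6, 3 to 13 higher in MLL-AF1p and 0 to 2 lower there, and 0 to 1 higher in MLL-AF9. The response was higher in MLL-AF1p for 3 to 19 members against MLL-AF9 and 4 to 35 against MLL-AF6, and lower in MLL-AF6 than in MLL-AF9 for 0 to 13. Under DMSO the counts were 2 to 8 higher and 8 to 12 lower in MLL-AF1p than in MLL-AF9, 0 to 3 higher and 5 to 19 lower in MLL-AF1p than in MLL-AF6, and 1 to 14 higher and 3 to 7 lower in MLL-AF6 than in MLL-AF9. The median log2 fold change of the members ran from -0.50 to -0.32 in MLL-AF9, -0.71 to -0.44 in MLL-AF6 and 0.03 to 0.12 in MLL-AF1p. With all libraries numbered 3 left out, each group has 2 libraries.

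With the groups of a comparison fitted alone, 5 members fell in MLL-AF1p (2 in the joint fit), the response was lower in MLL-AF6 than in MLL-AF9 for 1 (3 in the joint fit), and 3 were higher in MLL-AF6 than in MLL-AF9 under DMSO (9 in the joint fit). The difference of response between MLL-AF6 and MLL-AF9 was lower for 0 members with median centring and 1 with quantile normalization. Under DMSO, 5 members were higher in MLL-AF1p than in MLL-AF9 with quantile normalization (3 without). The causes were not tested. The other settings gave 19 to 26 members lower in MLL-AF9, 27 to 32 in MLL-AF6, and 9 to 14 higher in MLL-AF1p.

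With the replicate number as a block, 6 members had a lower response in MLL-AF6 than in MLL-AF9, 8 were higher in MLL-AF1p than in MLL-AF9 under DMSO and 2 higher in MLL-AF1p than in MLL-AF6. It made 36 single-gene calls pass that had not, and lost 0. Same-numbered libraries of different groups had correlated deviations in 33 of 45 pairs (over 0.1; range -0.10 to 0.63), against -0.65 to 0.38 in other pairs, and 14 of 18 libraries were closest to their own number. As not every pair passed and the labels do not tie the numbers to a shared day or culture, this is a hint from the data and not a pairing.

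The planned edgeR (with and without TMM) and DESeq2 fits were not run, since the values are RPKM. The voom fit gave 24, 31 and 11 members (lower in MLL-AF9 and MLL-AF6, higher in MLL-AF1p). With 3 libraries a group, changes of about the size seen in some members were missed in part in the simulation. As far fewer genes changed there, those rates do not carry over to the data.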

Other observations

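Among the genes that flank Dkc1 on the X chromosome, Fundc2 had 21.5, 25.6 and 23.7 RPKM in MLL-AF6 DMSO and 32.7, 33.5 and 34.3 RPKM in MLL-AF1p DMSO, against 19.0, 20.4 and 22.8 RPKM in MLL-AF9 DMSO, a difference of 0.68 between MLL-AF1p and MLL-AF9 on the log2 scale (adjusted p = 1.37e-06, limma). F8 stayed at or below 0.0524 RPKM in the DMSO libraries, and Smim9 and Gm5936 were listed at 0.

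In the annotation, 18 of 37 members share exon bases with a gene on the opposite strand, which the kit does not tell apart. The longest overlaps are 1030 bases between Tsr1 and Srr and 598 between Noc2l and Samd11.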
